A study of Mus musculus with 8 samples.

Results

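The genes described here are 46 listed genes of glucose metabolism in mouse bone marrow-derived macrophages: 4 for glucose uptake and hexokinase, 11 for the steps between glucose 6-phosphate and pyruvate, 4 for lactate, 6 for the pentose phosphate pathway, 7 for the entry of pyruvate into mitochondria and 14 for the citrate cycle. They were chosen by name, and each had to reach 1 RPKM (reads per kilobase of exon, scaled to the tags of a library) in at least 2 of the 8 libraries. All 46 of the 46 did, among 11040 genes that did so in a table of 24940. Bone marrow of C57BL/6 mice aged 6 to 8 weeks was grown in medium with 10% serum and M-CSF, the growth factor of macrophages, at 5 ng/ml for 16 h, and the non-adherent cells then at 30 ng/ml for 3 days. Total RNA was sequenced. The 4 groups, with 2 libraries each, were TMBIM6sh with RANKL, TMBIM6sh without RANKL, NCsh with RANKL and NCsh without RANKL. RANKL, the cytokine that turns macrophage precursors into osteoclasts, was given at 100 ng/ml for 24 h, and all cultures held M-CSF at 30 ng/ml.

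TMBIM6sh is a short hairpin against Tmbim6, which encodes a membrane protein of the endoplasmic reticulum, and NCsh is the hairpin it was set against, not spelled out in the labels. With 1 hairpin against 1, what follows from the loss of Tmbim6 cannot be told apart from other actions of either hairpin. The labels do not say whether the 2 libraries of a group came from separate mice or cultures, so the p-values measure the spread between libraries, which may be technical. One treatment text naming RANKL stands on every sample, and the titles and treatment labels decided which groups had none. In these bulk libraries, fewer cells of a type and less RNA per cell cannot be told apart.

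Glycolysis splits glucose into pyruvate in the cytosol, and its main points of control are uptake, phosphorylation, the phosphofructokinase step and the last step. Lactate dehydrogenase turns pyruvate into lactate, which leaves the cell by monocarboxylate transporters. The pentose phosphate pathway branches off at glucose 6-phosphate, where its oxidative part makes NADPH and its non-oxidative part makes ribose and returns sugars to glycolysis. Pyruvate that enters mitochondria becomes acetyl-CoA by pyruvate dehydrogenase or oxaloacetate by pyruvate carboxylase, and both feed the citrate cycle. Macrophages activated by bacterial products are known for high glycolysis, and osteoclasts for many mitochondria.

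Each library held 25476000 to 28596000 tags (rounded), of which 83.5 to 86.4% lay in exons, and the 46 genes took 1.59 to 1.68% of the exon tags. Tmbim6 had 10.0 and 10.5 RPKM in the TMBIM6sh libraries with RANKL and 11.1 and 11.7 RPKM in those without, against 309 and 321 RPKM in the NCsh libraries with RANKL and 330.0 and 334 RPKM in those without. Its mean in TMBIM6sh libraries was 3.25% of that in NCsh libraries with RANKL and 3.44% without. All 9 macrophage markers passed the filter on low values and summed to 7503 to 10798.5 RPKM, most of it from Lyz2 (5280.2 to 8071 RPKM), while Fcgr1 (3.19 to 8.37 RPKM), Mrc1 (4.60 to 14.9 RPKM) and Mertk (7.75 to 19.7 RPKM) were low. Markers of lymphocytes and of erythroid, mast and basophil cells summed to at most 0.14 RPKM in any library. Of the 8 neutrophil markers, S100a8 alone passed the filter, at 14.8 and 12.1 RPKM in TMBIM6sh and 22.7 and 27.4 RPKM in NCsh libraries with RANKL, and it was lower in TMBIM6sh in both states (log2 difference -0.85 with and -0.86 without RANKL). Ly6g was at 0 in all 8 libraries. The dendritic cell markers summed to at most 1.14 RPKM, with Cd209a at 0 in all 8 libraries. The stromal markers summed to 4.09 to 5.38 RPKM. Of 10 osteoclast genes 5 passed the filter, with Mmp9 higher and Atp6v0d2 lower with RANKL under both hairpins and in TMBIM6sh in both RANKL states. Ctsk, which marks mature osteoclasts, stayed under 0.1 RPKM in every library.

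The levels of the 46 genes spanned a wide range. Per length, Aldoa (aldolase A) was highest with a mean over the 8 libraries of 1405 RPKM, followed by Pkm (pyruvate kinase) at 1211, Gapdh at 789, Ldha at 566 and Eno1 at 446 RPKM. The lowest were Pcx (pyruvate carboxylase) at 1.27, Ldhb at 3.65 and Pfkm at 3.92 RPKM. The median level of the 46 genes was 35.9 RPKM, against 9.29 RPKM for all genes tested. By role, the median level was 48.4 RPKM for glucose uptake and hexokinases, 356 RPKM for glycolysis, 30.3 RPKM for lactate, 81.5 RPKM for the pentose phosphate pathway, 21.7 RPKM for pyruvate entry and 27.9 RPKM for the citrate cycle.

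**Figure D1:**
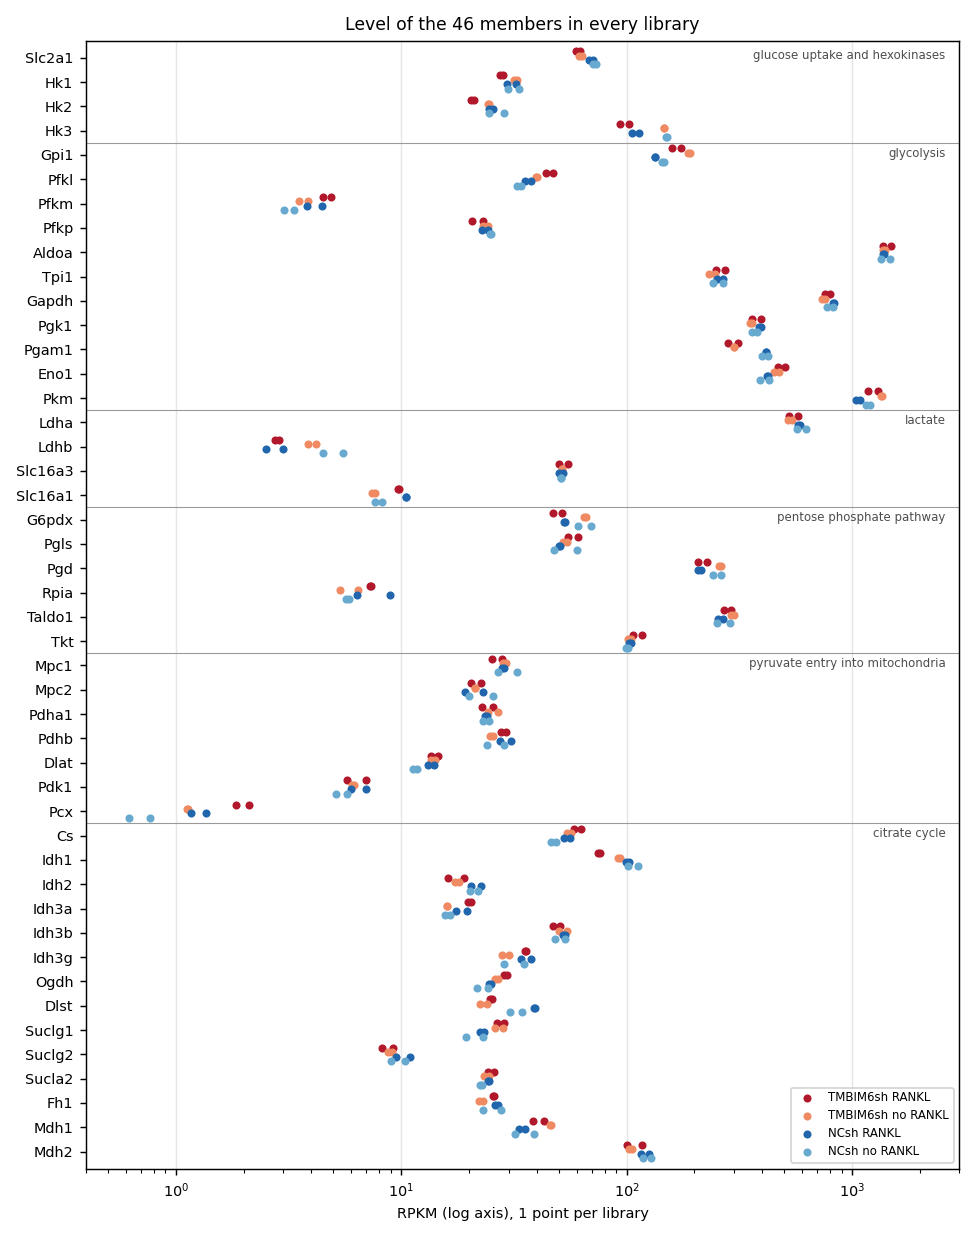
Level of each of the 46 genes in RPKM on a log axis, with 1 point for each of the 8 libraries, coloured by group, and genes ordered by role. Most genes keep their place on the axis in all 4 groups, with Aldoa and Pkm above 1000 RPKM and Pcx between 0.62 and 2.12 RPKM.

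Where several genes encode the same enzyme, 1 of them made up most of the RNA per length. Hk3, the hexokinase of myeloid cells, held 66.8 ± 0.84% of the summed level of Hk1, Hk2 and Hk3 in TMBIM6sh libraries with RANKL and 72.2 ± 0.18% without, and 66.3 ± 2.3% in NCsh libraries with RANKL and 72.2 ± 1.5% without (SD, n = 2). Pfkl, the liver type of phosphofructokinase, held 63.1 ± 0.62% of the summed phosphofructokinase level in TMBIM6sh libraries with RANKL and 59.2 ± 0.3% without, and 56.9 ± 0.26% in NCsh libraries with RANKL and 54.3 ± 0.69% without. The 4 groups did not overlap in this share. Ldhb stayed under 1% of lactate dehydrogenase RNA in all 8 libraries, between 0.424 and 0.881%. Idh1, of the cytosol, held 80.0 to 84.8% of the summed level of the NADP-dependent isocitrate dehydrogenases Idh1 and Idh2.

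With RANKL, single enzymes of glucose metabolism changed under each hairpin, and most of the 46 genes were not called. In TMBIM6sh libraries 3 of 46 were higher with RANKL (Pcx, Slc16a1 and Idh3a) and 5 were lower (Hk3, G6pdx, Ldhb, Idh1 and Pgd). In NCsh libraries 2 of 46 were higher (Slc16a1 and Dlst) and 4 were lower (Ldhb, Hk3, G6pdx and Pgd). Among all 11040 genes tested, 8.53% were higher and 6.89% lower with RANKL in TMBIM6sh libraries, and 11.0% higher and 3.98% lower in NCsh libraries, by limma at a Benjamini-Hochberg adjusted p under 0.05. The shares of the 46 genes were 6.52% higher and 10.9% lower in TMBIM6sh, and 4.35% higher and 8.7% lower in NCsh libraries. These shares rest on few genes. The balance over all genes in NCsh libraries depended on the scaling, with 7.13% higher and 7.7% lower after scaling by the median ratio of the genes. The median log2 difference of the 46 genes was 0.035 in TMBIM6sh libraries, against 0.017 over all genes tested, and 0.032 in NCsh libraries, against 0.064. None of the 11 genes between glucose 6-phosphate and pyruvate was called in either comparison. These 2 comparisons share no library, but both use a spread fitted over all 8 libraries, so their calls are not independent.

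At the entry to glycolysis, Hk3 (chr13:55005985-55020819, minus strand, in mm10) had 93.5 and 102 RPKM in the TMBIM6sh libraries with RANKL, against 147 and 147 RPKM in those without. It had 114 and 106 RPKM in the NCsh libraries with RANKL, against 152 and 149 RPKM in those without. All 4 libraries with RANKL lay below all 4 without. The log2 difference was -0.58 ± 0.065 (SE; limma adjusted p = 0.000356) in TMBIM6sh libraries, with a mean of 0.667 times that without RANKL. In NCsh libraries the difference was -0.45 ± 0.065 (SE; limma adjusted p = 0.00194), with a ratio of 0.73. Hk2, the inducible hexokinase, had 20.3 and 21.1 RPKM in the TMBIM6sh libraries with RANKL, against 24.3 and 24.4 RPKM in those without, and 24.4 and 25.5 RPKM in the NCsh libraries with RANKL, against 28.5 and 24.6 RPKM in those without. Its groups were apart in TMBIM6sh and overlapped in NCsh libraries, and neither difference passed the test (-0.22, limma adjusted p = 0.0783, and -0.08, adjusted p = 0.518). Slc2a1, the glucose transporter GLUT1, and Hk1 were not called, with log2 differences of -0.04 and -0.19 in TMBIM6sh and -0.04 and -0.03 in NCsh libraries.

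The first and the third enzyme of the oxidative pentose phosphate pathway fell together. G6pdx, glucose-6-phosphate dehydrogenase (chrX:74409486-74429161, minus strand), had 47.0 and 51.7 RPKM in the TMBIM6sh libraries with RANKL, against 66.3 and 64.7 RPKM in those without. The gene had 53.1 and 53.1 RPKM in the NCsh libraries with RANKL, against 60.7 and 69.3 RPKM in those without. The libraries with RANKL were lower and did not overlap those without, under either hairpin. The log2 difference was -0.40 ± 0.075 (SE; limma adjusted p = 0.00577) in TMBIM6sh and -0.28 ± 0.075 (SE; limma adjusted p = 0.0328) in NCsh libraries. In the GENCODE annotation 15.1% of the exonic bases of G6pdx also belong to Ikbkg on the opposite strand, and the counting did not use strand, so reads of these 2 genes cannot be told apart there. Pgd, 6-phosphogluconate dehydrogenase (chr4:149149991-149166082, minus strand), had 208 and 227 RPKM in the TMBIM6sh libraries with RANKL, against 262 and 257 RPKM in those without. It was at 208 and 214 RPKM in the NCsh libraries with RANKL, against 242 and 261 RPKM in those without. Again the libraries with RANKL were the lower ones and the groups did not overlap, with differences of -0.26 ± 0.068 (SE; limma adjusted p = 0.0321) in TMBIM6sh and -0.25 ± 0.068 (SE; limma adjusted p = 0.0348) in NCsh libraries. The other 4 genes of the pathway were not called. Pgls, 6-phosphogluconolactonase, the enzyme between these steps, differed by 0.12 in TMBIM6sh and -0.08 in NCsh libraries, and Rpia, ribose-5-phosphate isomerase, by 0.26 and 0.33. For Taldo1 (transaldolase) and Tkt (transketolase), which rearrange sugars in the non-oxidative part, the differences were -0.08 and 0.11 in TMBIM6sh and -0.05 and 0.04 in NCsh libraries.

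Among the lactate genes, 1 rose and 1 fell. Slc16a1, the monocarboxylate transporter MCT1 (chr3:104638664-104658462, plus strand), had 9.67 and 9.76 RPKM in the TMBIM6sh libraries with RANKL, against 7.69 and 7.42 RPKM in those without. It had 10.5 and 10.5 RPKM in the NCsh libraries with RANKL, against 8.27 and 7.66 RPKM in those without. Libraries with RANKL were above those without under both hairpins, by 0.32 ± 0.071 (SE; limma adjusted p = 0.0132) in TMBIM6sh and 0.36 ± 0.071 (SE; limma adjusted p = 0.00907) in NCsh libraries. Ldhb, lactate dehydrogenase B (chr6:142490249-142507957, minus strand), had 2.76 and 2.88 RPKM in the TMBIM6sh libraries with RANKL, against 3.86 and 4.19 RPKM in those without. It had 2.98 and 2.51 RPKM in the NCsh libraries with RANKL, against 4.51 and 5.54 RPKM in those without. Groups did not overlap and the libraries with RANKL were low. The difference was -0.40 ± 0.11 (SE; limma adjusted p = 0.0434) in TMBIM6sh and -0.68 ± 0.11 (SE; limma adjusted p = 0.0037) in NCsh libraries, on 83 to 185 tags per library. Ldha, which makes up nearly all lactate dehydrogenase RNA here, had 525 and 578 RPKM in the TMBIM6sh libraries with RANKL, against 540.5 and 519 RPKM in those without, and 579 and 589 RPKM in the NCsh libraries with RANKL, against 574 and 623 RPKM in those without. Slc16a3, the lactate exporter MCT4, had 50.3 and 55.0 RPKM in the TMBIM6sh libraries with RANKL, against 51.6 and 51.8 RPKM in those without, and 52.0 and 50.1 RPKM in the NCsh libraries with RANKL, against 51.0 and 51.1 RPKM in those without. The libraries with and without RANKL overlapped for both genes under both hairpins, and no difference passed the test (Ldha 0.06 and -0.03, Slc16a3 0.03 and 0.00).

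Of the genes for pyruvate entry and the citrate cycle, Pcx, which replenishes oxaloacetate, had the largest log2 difference under both hairpins. Pcx (chr19:4510472-4621752, plus strand) had 1.86 and 2.12 RPKM in the TMBIM6sh libraries with RANKL, against 1.12 and 1.13 RPKM in those without. In the other pair of groups it had 1.17 and 1.36 RPKM in the NCsh libraries with RANKL, against 0.769 and 0.620 RPKM in those without. The libraries with RANKL were higher under both hairpins, on 73 to 223 tags per library. The difference was 0.49 ± 0.13 (SE; limma adjusted p = 0.0308) in TMBIM6sh libraries, with a ratio of means of 1.76. It missed the threshold in NCsh libraries at 0.42 ± 0.13 (SE; limma adjusted p = 0.0567), with a ratio of 1.82. The pseudocount of 1 shrinks a log2 difference at such low levels.

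Idh3a, the catalytic subunit of the NAD-dependent isocitrate dehydrogenase (chr9:54586511-54604662, plus strand), had 19.7 and 20.5 RPKM in the TMBIM6sh libraries with RANKL, against 16.0 and 15.9 RPKM in those without, and 17.5 and 19.6 RPKM in the NCsh libraries with RANKL, against 16.4 and 15.7 RPKM in those without. Both pairs of groups were apart with the higher values under RANKL, and the difference passed the test in TMBIM6sh (0.32 ± 0.071 SE, limma adjusted p = 0.0146) but not in NCsh libraries (0.19 ± 0.071 SE, limma adjusted p = 0.0974). Idh1, which makes NADPH and 2-oxoglutarate in the cytosol (chr1:65158616-65179142, minus strand), had 75.1 and 75.9 RPKM in the TMBIM6sh libraries with RANKL, against 91.6 and 93.6 RPKM in those without. It had 100.0 and 102 RPKM in the NCsh libraries with RANKL, against 102 and 112 RPKM in those without. The groups were apart in TMBIM6sh libraries and overlapped in NCsh libraries. The difference was -0.29 ± 0.062 (SE; limma adjusted p = 0.0115) in TMBIM6sh and -0.08 ± 0.062 (SE; limma adjusted p = 0.423) in NCsh libraries. Dlst, the core subunit of oxoglutarate dehydrogenase (chr12:85110833-85134091, plus strand), had 24.8 and 25.2 RPKM in the TMBIM6sh libraries with RANKL, against 22.3 and 23.9 RPKM in those without. It had 39.0 and 39.3 RPKM in the NCsh libraries with RANKL, against 30.3 and 34.5 RPKM in those without. Libraries with RANKL were higher under both hairpins, by 0.11 ± 0.072 (SE; limma adjusted p = 0.363) in TMBIM6sh and 0.27 ± 0.072 (SE; limma adjusted p = 0.035) in NCsh libraries. The remaining citrate cycle genes were not called, with Idh3g at 0.29 and 0.17, Cs at 0.12 and 0.20, and Idh2 at -0.02 and 0.03 on the log2 scale in TMBIM6sh and NCsh libraries. Pdk1, the kinase that inhibits pyruvate dehydrogenase, had 5.77 and 6.95 RPKM in the TMBIM6sh libraries with RANKL, against 6.18 and 6.05 RPKM in those without, and 6.00 and 7.01 RPKM in the NCsh libraries with RANKL, against 5.14 and 5.73 RPKM in those without. Its groups overlapped in TMBIM6sh libraries, were apart in NCsh libraries, and passed the test in neither (limma adjusted p = 0.839 and 0.193).

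**Figure D2:**
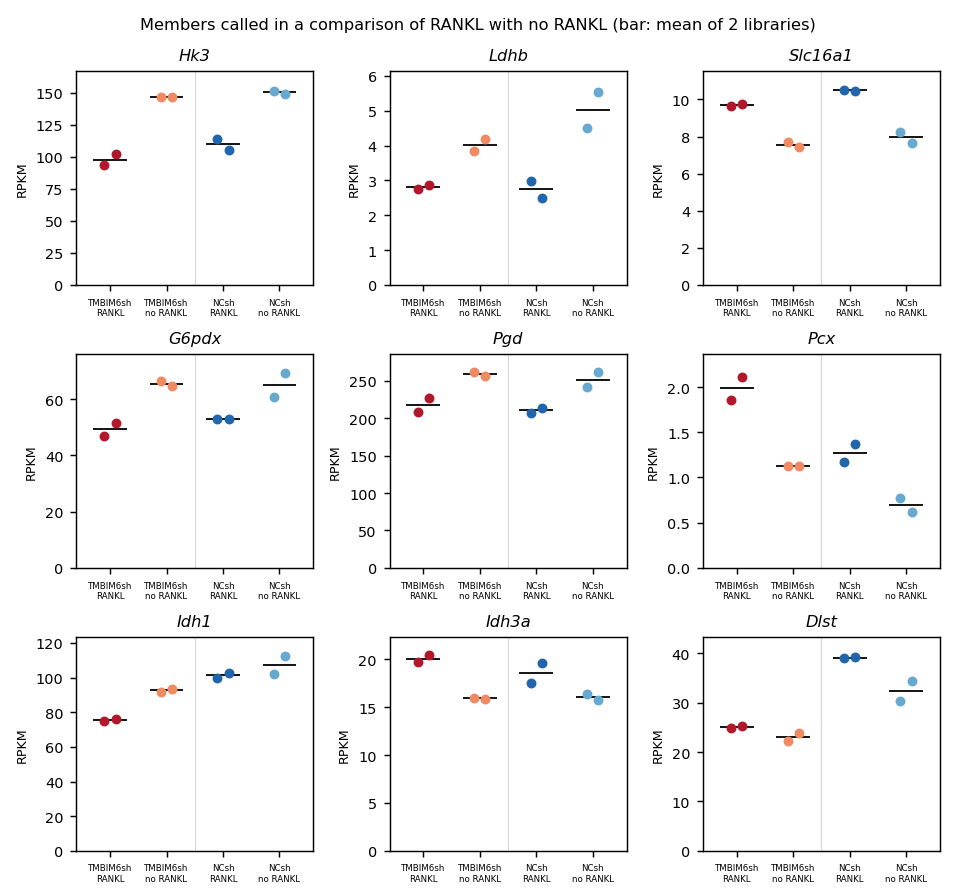
Level in RPKM, on linear axes from 0, of the 9 genes called between RANKL and no RANKL under at least 1 hairpin, with 1 point per library and a bar at the mean of 2 libraries; within each panel TMBIM6sh stands left and NCsh right. Hk3 lies between 93.5 and 114 RPKM in the 4 libraries with RANKL and between 147 and 152 RPKM in the 4 without.

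Each call was checked by leaving out 1 library at a time, where the single library left in a group is assumed to vary like the other groups. Hk3 kept its call throughout under both hairpins, and Ldhb did so in NCsh libraries. In TMBIM6sh libraries, Slc16a1, Ldhb, Pcx and Idh3a each lost the call on leaving out any 1 of the 4 TMBIM6sh libraries (limma adjusted p 0.0607 to 0.0991, 0.111 to 0.212, 0.0706 to 0.151 and 0.0527 to 0.093). Idh1 lost it without either TMBIM6sh library without RANKL or without replicate 1 of TMBIM6sh with RANKL (0.0602 to 0.104). G6pdx lost it without replicate 1 of either TMBIM6sh group (0.0514 and 0.0529), and Pgd without either NCsh library with RANKL, either TMBIM6sh library without RANKL or replicate 1 of TMBIM6sh with RANKL (0.0629 to 0.196). In NCsh libraries, G6pdx and Pgd lost the call without replicate 2 of NCsh without RANKL, either NCsh library with RANKL or either TMBIM6sh library without RANKL (0.0604 to 0.149 and 0.0751 to 0.203). Slc16a1 lost it without replicate 1 of NCsh with RANKL (0.0612), and Dlst without any library other than replicate 2 of NCsh without RANKL (0.0514 to 0.146). The number of genes called higher in TMBIM6sh libraries fell to 0 without any 1 of the 4 TMBIM6sh libraries, and the number called lower to 1 or 2 without replicate 1 of TMBIM6sh with RANKL or either TMBIM6sh library without RANKL. In NCsh libraries the higher calls numbered 0 without replicate 1 of NCsh with RANKL, and 1 without replicate 1 of NCsh without RANKL or any 1 of the TMBIM6sh libraries. The lower calls there numbered 2 without replicate 2 of NCsh without RANKL, either NCsh library with RANKL or either TMBIM6sh library without RANKL. After scaling the libraries by the median ratio of their genes, NCsh libraries had 1 of the 46 genes higher and 6 lower with RANKL, and 7.13% of all genes higher and 7.7% lower.

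Genes of cell division and of macrophage identity changed with RANKL in the same libraries. Of 12 cell division genes 11 were higher with RANKL under each hairpin (91.7%, against 8.53% of all genes in TMBIM6sh and 11.0% in NCsh libraries). Top2a, for example, had 21.8 and 22.4 RPKM in TMBIM6sh libraries with RANKL, against 10.3 and 9.59 RPKM in those without. In NCsh libraries Top2a had 35.3 and 37.9 RPKM with RANKL, against 18.0 and 15.8 RPKM without. Pcna was lower in TMBIM6sh libraries. Of 9 macrophage markers 5 were lower under each hairpin (55.6%, against 6.89% of all genes in TMBIM6sh and 3.98% in NCsh libraries). Csf1r, Mrc1, Mertk and Fcgr1 were lower under both, Itgam in TMBIM6sh and Cd14 in NCsh libraries alone. Csf1r, the receptor of M-CSF, had log2 differences of -0.69 in TMBIM6sh and -0.51 in NCsh libraries. Adgre1 was not called and had higher means with RANKL, at 861 against 747 RPKM in TMBIM6sh and 879 against 817 RPKM in NCsh libraries. The part of dividing cells or of macrophage identity in the changes of the metabolic genes was not tested.

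Between the hairpins, single genes of glucose uptake, glycolysis, pyruvate entry and the citrate cycle differed, in both directions, and none of the lactate or pentose phosphate genes was called. With RANKL, 5 of 46 genes were higher in TMBIM6sh than in NCsh libraries (Pcx, Gpi1, Pfkl, Suclg1 and Ogdh) and 6 were lower (Dlst, Pgam1, Idh1, Idh2, Hk2 and Slc2a1), among 8.93% higher and 19.7% lower of all 11040 genes. Without RANKL, 6 were higher (Gpi1, Mdh1, Suclg1, Pfkl, Dlat and Cs) and 4 lower (Dlst, Pgam1, Idh1 and Slc2a1), among 10.4% higher and 13.8% lower of all genes. As shares of the 46 genes these were 10.9% higher and 13% lower with RANKL, and 13% higher and 8.7% lower without. The median log2 difference of the 46 genes was 0.003 with RANKL and -0.007 without, against -0.068 and -0.021 over all genes tested. Gpi1, Pfkl and Suclg1 were higher and Slc2a1, Pgam1, Idh1 and Dlst lower in both states, 7 of the 14 genes called in either. The share of all genes called in both states was not computed, so this count has no background here. The 2 comparisons share no library, but their tests use a spread fitted over all 8 libraries, so the calls are not independent.

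The glucose transporter and the inducible hexokinase were the lower ones at the entry. Slc2a1 (chr4:119108745-119137329, plus strand) had 59.8 and 62.0 RPKM in TMBIM6sh and 71.2 and 68.5 RPKM in NCsh libraries with RANKL. It had 61.7 and 63.2 RPKM in TMBIM6sh and 73.0 and 70.7 RPKM in NCsh libraries without RANKL. All 4 TMBIM6sh libraries lay below all 4 NCsh libraries. The difference was -0.19 ± 0.057 (SE; limma adjusted p = 0.0291) with RANKL, a ratio of means of 0.872, and -0.20 ± 0.057 (SE; limma adjusted p = 0.0302) without. Hk2 (chr6:82725027-82774454, minus strand) had 20.3 and 21.1 RPKM in TMBIM6sh and 24.4 and 25.5 RPKM in NCsh libraries with RANKL, where TMBIM6sh was lower, and 24.3 and 24.4 RPKM in TMBIM6sh and 28.5 and 24.6 RPKM in NCsh libraries without RANKL, where the groups were apart by a small gap. The difference was -0.26 ± 0.075 (SE; limma adjusted p = 0.0298) with RANKL and -0.12 ± 0.075 (SE; limma adjusted p = 0.305) without. Hk1 and Hk3 passed the test in neither state, with Hk3 at -0.17 with and -0.04 without RANKL.

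Within glycolysis, 2 early enzymes rose and 1 late enzyme fell. Gpi1, glucose-6-phosphate isomerase (chr7:34201327-34230336, minus strand), had 159 and 175 RPKM in TMBIM6sh and 133 and 133 RPKM in NCsh libraries with RANKL. It had 191 and 188 RPKM in TMBIM6sh and 143 and 147 RPKM in NCsh libraries without RANKL. TMBIM6sh libraries were higher than NCsh libraries in both states without overlap. The difference was 0.32 ± 0.062 (SE; limma adjusted p = 0.00429) with RANKL, a ratio of 1.26, and 0.38 ± 0.062 (SE; limma adjusted p = 0.00219) without, a ratio of 1.3. In GENCODE, 11.5% of the exonic bases of Gpi1 also belong to Gm26762 on the opposite strand. Pfkl, the phosphofructokinase that leads in these cells (chr10:77986949-78009807, minus strand), had 43.9 and 47.1 RPKM in TMBIM6sh and 37.6 and 35.4 RPKM in NCsh libraries with RANKL. It had 40.2 and 39.5 RPKM in TMBIM6sh and 33.9 and 32.8 RPKM in NCsh libraries without RANKL. The TMBIM6sh libraries were again the higher ones, and the differences were 0.31 ± 0.062 (SE; limma adjusted p = 0.00522) with RANKL and 0.25 ± 0.062 (SE; limma adjusted p = 0.0168) without. The muscle and platelet types were not called, with Pfkm at 0.15 and 0.17 and Pfkp at -0.10 and -0.07 with and without RANKL.

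Pgam1, phosphoglycerate mutase (chr19:41911871-41918665, plus strand), had 282 and 313 RPKM in TMBIM6sh and 414 and 417 RPKM in NCsh libraries with RANKL. It had 299 and 301 RPKM in TMBIM6sh and 400.4 and 423 RPKM in NCsh libraries without RANKL. Every TMBIM6sh library was more than 80 RPKM below every NCsh library. The difference was -0.48 ± 0.07 (SE; limma adjusted p = 0.000928) with RANKL, a ratio of means of 0.716, and -0.45 ± 0.07 (SE; limma adjusted p = 0.00152) without, a ratio of 0.729. Pkm, which makes pyruvate at the last step, had 1181 and 1302 RPKM in TMBIM6sh and 1047 and 1087 RPKM in NCsh libraries with RANKL. It had 1366 and 1345 RPKM in TMBIM6sh and 1151 and 1209 RPKM in NCsh libraries without RANKL. The TMBIM6sh libraries of each state were above the NCsh libraries of that state, without passing the test (0.22 ± 0.081 SE, limma adjusted p = 0.0708 and 0.20 ± 0.081 SE, limma adjusted p = 0.103). Eno1, the enolase between Pgam1 and Pkm, had 472 and 504 RPKM in TMBIM6sh and 423 and 419 RPKM in NCsh libraries with RANKL, and 476 and 453 RPKM in TMBIM6sh and 392 and 427 RPKM in NCsh libraries without RANKL. Its groups were apart, and the difference with RANKL stood at the threshold without passing (0.21 ± 0.071 SE, limma adjusted p = 0.05). The table lists Eno1 beside a near-identical Eno1b row at 504 to 639 RPKM that can take the same reads, so its level is uncertain.

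Several of the most abundant enzymes passed the test in no comparison. Aldoa, Tpi1 (triosephosphate isomerase), Gapdh, Pgk1 (phosphoglycerate kinase) and Ldha had log2 differences of -0.09 to 0.06 between hairpins with RANKL, with 95% intervals that together ran from -0.25 to 0.24, and of -0.17 to -0.02 without RANKL, with intervals from -0.34 to 0.16. Ldha had 525 and 578 RPKM in TMBIM6sh and 579 and 589 RPKM in NCsh libraries with RANKL, and 540.5 and 519 RPKM in TMBIM6sh and 574 and 623 RPKM in NCsh libraries without RANKL. Its TMBIM6sh libraries were the lower ones in both states, and the difference passed in neither (limma adjusted p = 0.44 and 0.129). With RANKL against without, these 5 enzymes differed by 0.05 to 0.13 in TMBIM6sh libraries and by -0.03 to 0.08 in NCsh libraries. Slc16a3 had 50.3 and 55.0 RPKM in TMBIM6sh and 52.0 and 50.1 RPKM in NCsh libraries with RANKL, and 51.6 and 51.8 RPKM in TMBIM6sh and 51.0 and 51.1 RPKM in NCsh libraries without RANKL, all within 5 RPKM of each other. None of the 6 pentose phosphate genes was called between hairpins, with G6pdx at -0.10 and 0.01 and Pgd at 0.04 and 0.05 with and without RANKL.

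For pyruvate entry, Pcx had 1.86 and 2.12 RPKM in TMBIM6sh and 1.17 and 1.36 RPKM in NCsh libraries with RANKL, and 1.12 and 1.13 RPKM in TMBIM6sh and 0.769 and 0.620 RPKM in NCsh libraries without RANKL. TMBIM6sh libraries were higher in both states, by 0.40 ± 0.13 (SE; limma adjusted p = 0.0447) with RANKL, a ratio of means of 1.57, and by 0.33 ± 0.13 (SE; limma adjusted p = 0.095) without, where the test was not passed. Dlat, the core subunit of pyruvate dehydrogenase (chr9:50634633-50659780, minus strand), had 13.5 and 14.6 RPKM in TMBIM6sh and 14.0 and 13.2 RPKM in NCsh libraries with RANKL, which overlapped. It had 13.6 and 14.1 RPKM in TMBIM6sh and 11.3 and 11.7 RPKM in NCsh libraries without RANKL, where TMBIM6sh was higher, and the difference passed the test without RANKL alone (0.25 ± 0.07 SE, limma adjusted p = 0.0282, against 0.05 ± 0.07 SE, limma adjusted p = 0.653 with RANKL). Pdk1 had 5.77 and 6.95 RPKM in TMBIM6sh and 6.00 and 7.01 RPKM in NCsh libraries with RANKL, and 6.18 and 6.05 RPKM in TMBIM6sh and 5.14 and 5.73 RPKM in NCsh libraries without RANKL, and passed in neither state. The pyruvate carrier genes Mpc1 and Mpc2 and the pyruvate dehydrogenase genes Pdha1 and Pdhb had log2 differences between -0.09 and 0.10 in the 2 states, none of them called.

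In the citrate cycle, 2 subunits of the same complex differed between hairpins in opposite directions in the libraries given RANKL. Dlst had 24.8 and 25.2 RPKM in TMBIM6sh and 39.0 and 39.3 RPKM in NCsh libraries with RANKL. It had 22.3 and 23.9 RPKM in TMBIM6sh and 30.3 and 34.5 RPKM in NCsh libraries without RANKL. TMBIM6sh libraries were the low ones in both states, with a difference of -0.62 ± 0.072 (SE; limma adjusted p = 0.000284) with RANKL, a ratio of means of 0.64, and -0.47 ± 0.072 (SE; limma adjusted p = 0.00155) without, a ratio of 0.714. Ogdh, the first subunit of the same oxoglutarate dehydrogenase (chr11:6291597-6359094, plus strand), had 28.6 and 29.5 RPKM in TMBIM6sh and 25.1 and 24.6 RPKM in NCsh libraries with RANKL, and 26.1 and 27.0 RPKM in TMBIM6sh and 24.4 and 21.7 RPKM in NCsh libraries without RANKL. TMBIM6sh libraries were higher in both states, and the difference passed with RANKL (0.21 ± 0.068 SE, limma adjusted p = 0.0416) but not without (0.20 ± 0.068 SE, limma adjusted p = 0.066). Suclg1, the alpha subunit of succinyl-CoA ligase (chr6:73248505-73276907, plus strand), had 28.7 and 26.7 RPKM in TMBIM6sh and 22.3 and 23.3 RPKM in NCsh libraries with RANKL. It had 26.1 and 28.3 RPKM in TMBIM6sh and 19.3 and 23.0 RPKM in NCsh libraries without RANKL. All 4 TMBIM6sh libraries were above all 4 NCsh libraries, by 0.27 ± 0.087 (SE; limma adjusted p = 0.043) with RANKL and 0.35 ± 0.087 (SE; limma adjusted p = 0.0171) without. Its partners Suclg2 (-0.21 and -0.11) and Sucla2 (0.03 and 0.08), the beta subunits, were not called.

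Among libraries given RANKL, both NADP-dependent isocitrate dehydrogenases were lower in TMBIM6sh. Idh1 had 75.1 and 75.9 RPKM in TMBIM6sh and 100.0 and 102 RPKM in NCsh libraries with RANKL. It had 91.6 and 93.6 RPKM in TMBIM6sh and 102 and 112 RPKM in NCsh libraries without RANKL. TMBIM6sh libraries were lower in both states, with a difference of -0.42 ± 0.062 (SE; limma adjusted p = 0.00106) with RANKL, a ratio of means of 0.746, and -0.21 ± 0.062 (SE; limma adjusted p = 0.0372) without, a ratio of 0.864. Idh2, the mitochondrial form (chr7:80094847-80115350, minus strand), had 16.1 and 19.0 RPKM in TMBIM6sh and 20.4 and 22.6 RPKM in NCsh libraries with RANKL, and 17.4 and 18.1 RPKM in TMBIM6sh and 21.9 and 20.2 RPKM in NCsh libraries without RANKL. The groups were apart with TMBIM6sh lower in both states, and the test was passed with RANKL (-0.28 ± 0.089 SE, limma adjusted p = 0.0407) but not without (-0.23 ± 0.089 SE, limma adjusted p = 0.088). Cs, citrate synthase, which opens the cycle (chr10:128337727-128362482, plus strand), had 58.7 and 62.9 RPKM in TMBIM6sh and 56.1 and 53.0 RPKM in NCsh libraries with RANKL, and 56.7 and 54.7 RPKM in TMBIM6sh and 48.9 and 46.1 RPKM in NCsh libraries without RANKL. TMBIM6sh libraries were higher in both states, and the difference passed without RANKL (0.23 ± 0.064 SE, limma adjusted p = 0.0296) but not with it (0.15 ± 0.064 SE, limma adjusted p = 0.101). Mdh1, the malate dehydrogenase of the cytosol (chr11:21556692-21571934, minus strand), had 38.5 and 43.1 RPKM in TMBIM6sh and 33.5 and 35.3 RPKM in NCsh libraries with RANKL, and 46.3 and 45.6 RPKM in TMBIM6sh and 32.1 and 38.9 RPKM in NCsh libraries without RANKL. It too was higher in TMBIM6sh libraries of both states, with 0.37 ± 0.091 (SE; limma adjusted p = 0.0166) without RANKL and 0.24 ± 0.091 (SE; limma adjusted p = 0.079) with it. Mdh2, its mitochondrial counterpart, stood at -0.15 with and -0.24 without RANKL and was not called.

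**Figure D3:**
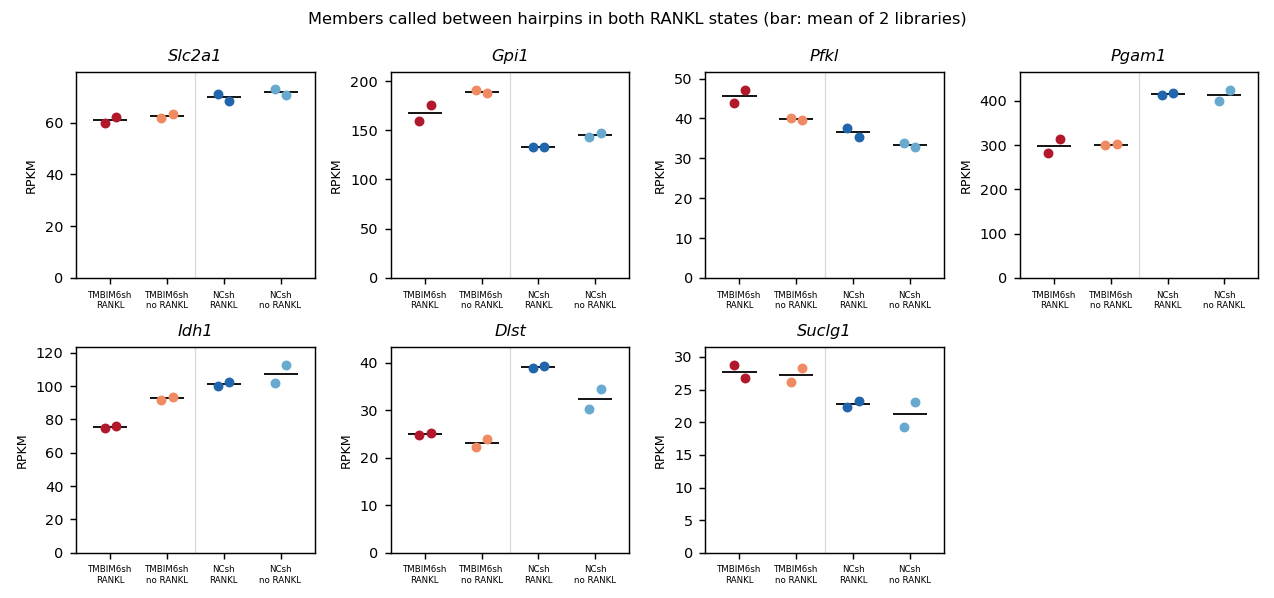
Level in RPKM, on linear axes from 0, of the 7 genes called between hairpins both with and without RANKL, with 1 point per library and a bar at the mean of 2 libraries; TMBIM6sh stands left and NCsh right in each panel. Slc2a1, Pgam1, Idh1 and Dlst are lower and Gpi1, Pfkl and Suclg1 higher in all 4 TMBIM6sh libraries than in the NCsh libraries of the same RANKL state.

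On leaving out 1 library at a time, Gpi1, Pgam1 and Dlst kept their calls in both states, and Pfkl and Idh1 with RANKL. With RANKL, Slc2a1, Hk2, Pcx, Ogdh and Suclg1 each lost the call without any 1 of the 6 libraries other than those of NCsh without RANKL (limma adjusted p 0.0565 to 0.177, 0.0509 to 0.145, 0.0666 to 0.2, 0.0691 to 0.163 and 0.0577 to 0.197), and Idh2 without 5 of these, all but replicate 2 of TMBIM6sh with RANKL (0.0601 to 0.241). Without RANKL, Pfkl and Cs lost the call without replicate 2 of NCsh without RANKL or either TMBIM6sh library without RANKL (0.0541 to 0.112 and 0.0997 to 0.184), and Mdh1 without replicate 1 of NCsh without RANKL or either TMBIM6sh library without RANKL (0.0626 to 0.0902). Dlat lost it without any 1 of the 4 libraries compared (0.0515 to 0.159), and Suclg1 without replicate 1 of NCsh or replicate 2 of TMBIM6sh, both without RANKL (0.0691 and 0.122). Slc2a1 lost it without either TMBIM6sh library without RANKL, either NCsh library with RANKL or replicate 1 of NCsh without RANKL (0.0518 to 0.191), and Idh1 without the same libraries but with replicate 2 of NCsh without RANKL in place of replicate 1 (0.0639 to 0.202). With RANKL, the higher calls numbered 9 without either NCsh library without RANKL and 2 without any 1 of the other 6, and the lower calls 3 without any 1 of those 6 other than replicate 2 of TMBIM6sh with RANKL. Without RANKL, the higher calls numbered 2 without replicate 1 and 1 without replicate 2 of TMBIM6sh without RANKL, and the lower calls 2 without either of these or either NCsh library with RANKL.

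The balance of calls between hairpins with RANKL depended on the scaling. With the libraries scaled by the median ratio of their genes, 11 of the 46 genes were higher and 3 lower in TMBIM6sh libraries, among 14.6% higher and 14.7% lower of all genes. Eno1, Pkm, Cs, Mdh1, Tkt and Pgls were then called higher as well, while Slc2a1, Hk2 and Idh2 were no longer called lower. Without RANKL, the scaled libraries had 9 of the 46 genes higher and 5 lower, among 12.4% higher and 13% lower of all genes.

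**Figure D4:**
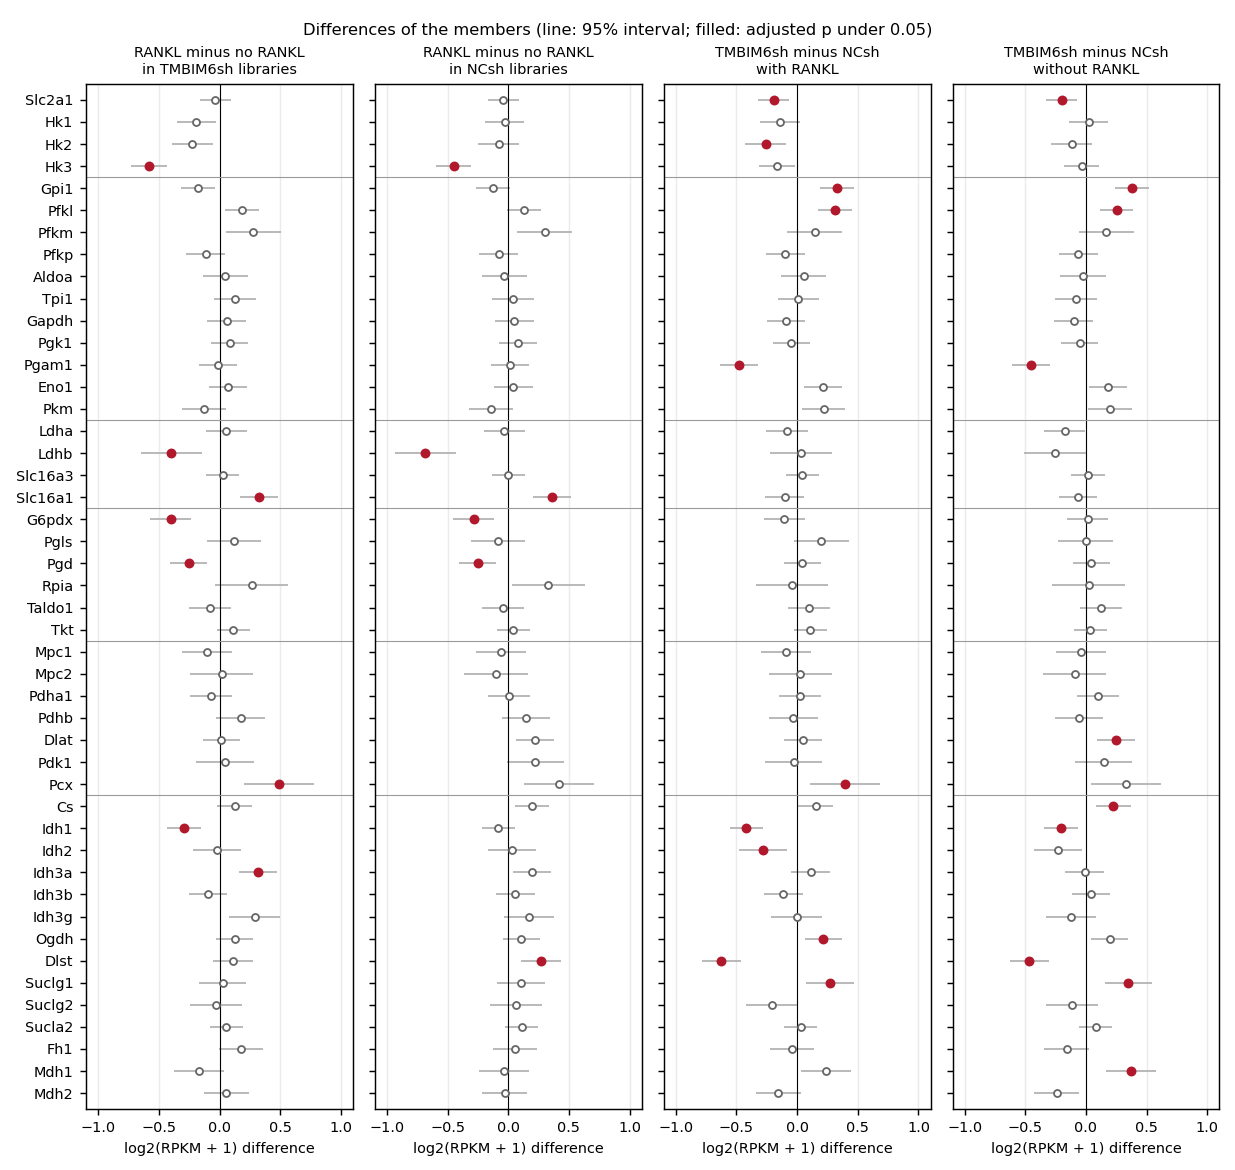
Difference of each of the 46 genes on the log2(RPKM + 1) scale in 4 comparisons (RANKL minus no RANKL in TMBIM6sh and in NCsh libraries, TMBIM6sh minus NCsh with and without RANKL), with points for the fitted differences, lines for 95% intervals and filled points for a limma adjusted p under 0.05. Filled points number 8, 6, 11 and 10, and lie on both sides of 0 in every panel.

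The 4 genes of glucose uptake and glycolysis called between hairpins in both states, which differ in direction, are shown by their promoters. Whether these sequences bear on the differences was not tested. The sequences, from RefSeq on GRCm38.p6, run 5′ to 3′ on the strand of the gene over 250 bases before and 50 after its start. Capitals mark ACGTG and GCGTG on either strand (CACGT and CACGC on the strand shown), the core of the hypoxia response element to which hypoxia-inducible factors bind.
Slc2a1 (chr4:119108495-119108794, plus strand), lower in TMBIM6sh libraries: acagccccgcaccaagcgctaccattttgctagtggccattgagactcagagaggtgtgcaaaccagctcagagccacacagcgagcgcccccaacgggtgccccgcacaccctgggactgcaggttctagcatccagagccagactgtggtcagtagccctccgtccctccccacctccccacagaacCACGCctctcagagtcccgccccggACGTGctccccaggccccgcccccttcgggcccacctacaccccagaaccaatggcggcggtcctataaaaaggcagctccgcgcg
Pgam1 (chr19:41911621-41911920, plus strand), lower in TMBIM6sh libraries: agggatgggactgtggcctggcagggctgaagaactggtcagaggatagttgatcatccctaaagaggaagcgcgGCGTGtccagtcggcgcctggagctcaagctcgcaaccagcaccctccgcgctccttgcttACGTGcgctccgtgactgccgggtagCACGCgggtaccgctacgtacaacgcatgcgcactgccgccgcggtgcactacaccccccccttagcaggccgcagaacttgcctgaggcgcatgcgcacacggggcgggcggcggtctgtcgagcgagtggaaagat
Gpi1 (chr7:34230287-34230586, minus strand), higher in TMBIM6sh libraries: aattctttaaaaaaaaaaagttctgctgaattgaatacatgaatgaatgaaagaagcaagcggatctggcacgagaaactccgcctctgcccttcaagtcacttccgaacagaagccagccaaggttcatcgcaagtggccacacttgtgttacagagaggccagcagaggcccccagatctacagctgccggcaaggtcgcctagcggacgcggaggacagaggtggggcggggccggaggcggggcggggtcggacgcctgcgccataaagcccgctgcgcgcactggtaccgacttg
Pfkl (chr10:78009758-78010057, minus strand), higher in TMBIM6sh libraries: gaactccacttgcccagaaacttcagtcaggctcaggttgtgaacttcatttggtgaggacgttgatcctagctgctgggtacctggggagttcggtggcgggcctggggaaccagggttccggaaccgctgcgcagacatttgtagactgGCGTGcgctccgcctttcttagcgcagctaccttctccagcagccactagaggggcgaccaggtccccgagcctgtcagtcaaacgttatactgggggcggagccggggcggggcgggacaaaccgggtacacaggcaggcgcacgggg
The first of the words, ACGTG, stood in both promoters of the lower genes and in neither of the others, while GCGTG stood in Slc2a1, Pgam1 and Pfkl. Of the 46 genes 45 had a promoter in the table, all but Idh3a. ACGTG was in 17 of these 45 (37.8%), against 26.6% of 10886 promoters of tested genes and 19.6% of all 32851 promoters of the same length. GCGTG was in 28 (62.2%), against 51.4% and 32.4%. The word CACGTG, to which MYC binds and which contains ACGTG, was in 3 (6.67%), against 10.6% and 7.15%. Among the 4 genes lower in TMBIM6sh libraries in both states 2 held ACGTG, and Dlst and Idh1 did not. Among the 3 higher in both states 0 held it. Of the 38 genes not called between hairpins in both states, 15 held ACGTG, so the word does not set the lower genes apart. A match is a description of the letters and not of a bound site.

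Hypoxia genes outside glycolysis, measured beside the 46 genes, were lower in TMBIM6sh than in NCsh cells wherever they were called. Of 17 tested, 10 were lower in TMBIM6sh libraries with RANKL (58.8%, against 19.7% of all genes) and 7 without (41.2%, against 13.8%), and 0 were higher. The list was chosen with earlier results of these data known, so these shares describe the list and do not test it. The cause of the differences was not tested. The median log2 difference of the 17 genes was -0.37 with RANKL and -0.23 without. The difference was above 0 for 3 of the 17 with RANKL (up to 0.24) and 5 without (up to 0.31), none of them called. Vegfa, the angiogenic growth factor, had 14.3 and 15.7 RPKM in TMBIM6sh and 27.6 and 24.6 RPKM in NCsh libraries with RANKL, and 17.1 and 17.4 RPKM in TMBIM6sh and 24.6 and 23.5 RPKM in NCsh libraries without RANKL, with differences of -0.76 ± 0.075 (SE; limma adjusted p = 0.000112) and -0.46 ± 0.075 (SE; limma adjusted p = 0.00219). Ero1l, an oxidase of protein folding, had 91.5 and 88.5 RPKM in TMBIM6sh and 143 and 148 RPKM in NCsh libraries with RANKL, and 92.4 and 94.3 RPKM in TMBIM6sh and 129 and 127 RPKM in NCsh libraries without RANKL. Ndrg1 differed by -0.58 and -0.32 and Hilpda by -0.68 and -0.53 with and without RANKL. The TMBIM6sh libraries of each state were below the NCsh libraries of that state for these 4 genes. Hif1a itself, the hypoxia-inducible factor subunit, had 31.3 and 33.0 RPKM in TMBIM6sh and 34.7 and 35.2 RPKM in NCsh libraries with RANKL, and 31.0 and 32.2 RPKM in TMBIM6sh and 33.2 and 30.5 RPKM in NCsh libraries without RANKL, and was called in no comparison. With RANKL against without, Ndrg1 alone of the 17 was called, lower under both hairpins (-0.62 in TMBIM6sh and -0.36 in NCsh libraries). This is 5.88% of the 17, against 6.89% of all genes lower in TMBIM6sh and 3.98% in NCsh libraries.

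**Figure D5:**
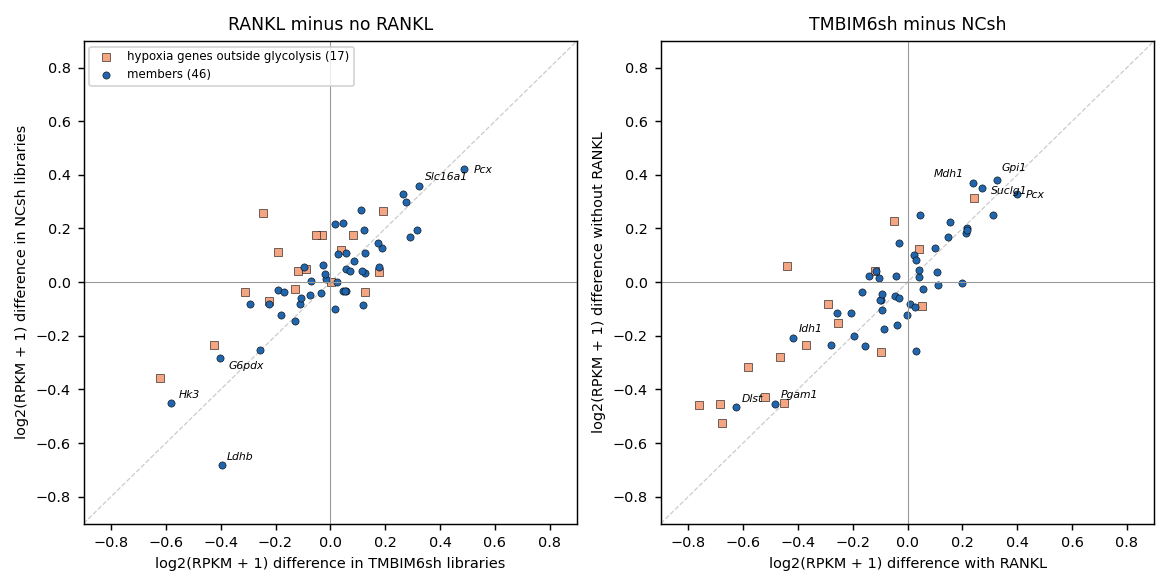
Differences on the log2(RPKM + 1) scale of the 46 genes (blue circles) and of 17 hypoxia genes outside glycolysis (orange squares); left, RANKL minus no RANKL in TMBIM6sh (x) against NCsh libraries (y), and right, TMBIM6sh minus NCsh with RANKL (x) against without (y), with a dashed line of equality. The 46 genes gather around 0 with single genes at either end, and Pearson's r across them is 0.858 in both panels.

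The differences of the 46 genes were compared under both hairpins and in both states. Across the 46 genes Pearson's r between the RANKL differences in TMBIM6sh and in NCsh libraries was 0.858 (Spearman's rho 0.797), with 36 genes of the same sign, against 0.697 (rho 0.623) across all 11040 genes. Between the hairpin differences with and without RANKL r was 0.858 (rho 0.797), with 35 of the same sign, against 0.775 (rho 0.736) across all genes. Each pair uses all 8 libraries, with none on both sides, and genes are not independent replicates. The difference of the RANKL responses between hairpins was tested for each gene, and 0 of the 46 passed, among 0.00906% of all genes (1 gene). At an unadjusted p under 0.05 stood 1 of the 46, Idh1, with -0.21 ± 0.088 (SE; limma adjusted p = 0.633), against 857 of all 11040 genes. With voom on tags, limma called 0 of the 46 as well. The 95% intervals of these differences ran from -0.51 to 0.647 over the 46 genes, so a different response of that size is not shown to be absent.

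Of the 46 genes 20 were called in at least 1 comparison, 9 with RANKL and 14 between hairpins. The matching shares of all genes were not computed, so these counts are not read as a result about the 46 genes. Pcx, Idh1 and Dlst were called in both kinds. The 26 called in none were Hk1, Pfkm, Pfkp, Aldoa, Tpi1, Gapdh, Pgk1, Eno1, Pkm, Ldha, Slc16a3, Pgls, Rpia, Taldo1, Tkt, Mpc1, Mpc2, Pdha1, Pdhb, Pdk1, Idh3b, Idh3g, Suclg2, Sucla2, Fh1 and Mdh2. With RANKL against without, the differences of these 26 ran from -0.19 (Hk1) to 0.29 (Idh3g) in TMBIM6sh libraries and from -0.15 (Pkm) to 0.33 (Rpia) in NCsh libraries. Between hairpins they ran from -0.21 (Suclg2) to 0.22 (Pkm) with RANKL and from -0.24 (Mdh2) to 0.20 (Pkm) without.

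Of 28 further glycolysis and pentose phosphate genes tested, 2 were higher (7.14%) and 0 lower with RANKL in TMBIM6sh libraries, against 8.53% and 6.89% of all genes. In NCsh libraries 3 were higher (10.7%) and 0 lower, against 11.0% and 3.98% of all genes. Eno2, a second enolase, had 10.4 and 10.2 RPKM in the TMBIM6sh libraries with RANKL, against 6.37 and 6.43 RPKM in those without, and 12.4 and 10.6 RPKM in the NCsh libraries with RANKL, against 7.48 and 6.02 RPKM in those without, with higher values under RANKL (0.61 ± 0.1 SE, limma adjusted p = 0.00348 and 0.69 ± 0.1 SE, limma adjusted p = 0.00218). Prps2, which makes phosphoribosyl pyrophosphate from ribose 5-phosphate, was higher by 0.28 and 0.27, and Prps1 by 0.60 in NCsh libraries. Between hairpins 3 were higher (10.7%) and 6 lower (21.4%) with RANKL, against 8.93% and 19.7% of all genes, and 3 higher (10.7%) and 5 lower (17.9%) without, against 10.4% and 13.8%. Pfkfb3, which makes the activator of phosphofructokinase fructose 2,6-bisphosphate, had 27.9 and 30.4 RPKM in TMBIM6sh and 46.4 and 44.2 RPKM in NCsh libraries with RANKL, and 31.7 and 33.5 RPKM in TMBIM6sh and 45.9 and 42.8 RPKM in NCsh libraries without RANKL. All 4 TMBIM6sh libraries were below all 4 NCsh libraries, with a difference of -0.62 ± 0.068 (SE; limma adjusted p = 0.000219) and -0.43 ± 0.068 (SE; limma adjusted p = 0.00175). Its relative Pfkfb4 had 6.00 and 6.14 RPKM in TMBIM6sh and 6.29 and 5.57 RPKM in NCsh libraries with RANKL, and 6.32 and 6.95 RPKM in TMBIM6sh and 7.62 and 7.02 RPKM in NCsh libraries without RANKL, and was called in no comparison. Pgm2, a phosphoglucomutase, had 18.2 and 21.3 RPKM in TMBIM6sh and 30.9 and 32.5 RPKM in NCsh libraries with RANKL, and 17.3 and 16.9 RPKM in TMBIM6sh and 27.4 and 29.2 RPKM in NCsh libraries without RANKL, and was lower, at -0.66 and -0.70. The glucose transporter gene Slc2a6 was higher by 0.43 and 0.56, H6pd of the endoplasmic reticulum by 0.24 and 0.33, and Slc2a3, the transporter GLUT3, by 0.41 with RANKL. The epimerase gene Rpe was lower, at -0.43 with RANKL, and Prps2 at -0.36 with and -0.38 without RANKL.

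Of 31 further pyruvate and citrate cycle genes tested, 1 was higher (3.23%) and 2 lower (6.45%) with RANKL in TMBIM6sh libraries, against 8.53% and 6.89% of all genes. In NCsh libraries 3 were higher (9.68%) and 2 lower (6.45%), against 11.0% and 3.98% of all genes. Slc25a10, the mitochondrial dicarboxylate carrier, was higher by 0.61 and 0.49, and Pck2, mitochondrial phosphoenolpyruvate carboxykinase, lower, at -0.41 and -0.31 on the log2 scale. Slc25a1, the citrate carrier, was lower, at -0.26 in NCsh libraries. Acod1, which makes itaconate from the cycle's aconitate in activated macrophages, had 36.5 and 37.8 RPKM in the TMBIM6sh libraries with RANKL, against 46.9 and 45.4 RPKM in those without, and 49.5 and 45.1 RPKM in the NCsh libraries with RANKL, against 53.1 and 55.2 RPKM in those without. It was lower with RANKL in TMBIM6sh libraries (-0.31 ± 0.064 SE, limma adjusted p = 0.0105) and missed the threshold in NCsh libraries (-0.19 ± 0.064 SE, limma adjusted p = 0.0759). Between hairpins it was lower in TMBIM6sh libraries, with a difference of -0.34 with and -0.23 without RANKL. Of these 31 genes 3 were higher (9.68%) and 8 lower (25.8%) in TMBIM6sh libraries with RANKL, against 8.93% and 19.7% of all genes, and 3 higher (9.68%) and 5 lower (16.1%) without, against 10.4% and 13.8%.

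Among 15 regulators of these pathways, Myc, a transcription factor of growth genes, had the largest difference with RANKL. Myc had 22.8 and 25.1 RPKM in the TMBIM6sh libraries with RANKL, against 14.0 and 12.8 RPKM in those without, and 24.4 and 24.8 RPKM in the NCsh libraries with RANKL, against 10.8 and 11.2 RPKM in those without. The libraries with RANKL were higher without overlap, by 0.79 ± 0.072 (SE; limma adjusted p = 0.000116) in TMBIM6sh and 1.09 ± 0.072 (SE; limma adjusted p = 4.55e-05) in NCsh libraries. In all, 1 regulator was higher (6.67%) and 3 lower (20%) with RANKL in TMBIM6sh libraries, against 8.53% and 6.89% of all genes. In NCsh libraries 1 was higher (6.67%) and 0 lower, against 11.0% and 3.98% of all genes. The lower ones were Nfe2l2, the antioxidant factor NRF2 (-0.24), Txnip (-0.21) and Epas1, the subunit of hypoxia-inducible factor 2 (-0.45). Epas1 reached 1 RPKM only in TMBIM6sh libraries without RANKL (1.095 and 1.183 RPKM). It thus passed the filter only through the group it was set against, near the floor, and its call and its part in the 20% are no support. Between hairpins, Esrra, a nuclear receptor that acts on mitochondrial genes, had 26.4 and 26.1 RPKM in TMBIM6sh and 13.7 and 12.5 RPKM in NCsh libraries with RANKL, and 26.7 and 26.8 RPKM in TMBIM6sh and 12.6 and 12.5 RPKM in NCsh libraries without RANKL. It was higher in all TMBIM6sh libraries, by 0.96 ± 0.064 (SE; limma adjusted p = 1.65e-05) and 1.03 ± 0.064 (SE; limma adjusted p = 1.66e-05). Txnip, which limits glucose uptake, had 118 and 129 RPKM in TMBIM6sh and 204 and 203 RPKM in NCsh libraries with RANKL, and 143 and 144 RPKM in TMBIM6sh and 203 and 209 RPKM in NCsh libraries without RANKL, and was lower, at -0.71 and -0.52. The regulators numbered 2 higher (13.3%) and 3 lower (20%) with RANKL, against 8.93% and 19.7% of all genes, and 4 higher (26.7%) and 2 lower (13.3%) without, against 10.4% and 13.8%. Nfe2l2 was lower in both (-0.40 and -0.22), Hif1an was higher in both (0.37 and 0.31), and Arnt (0.41) and Myc (0.26) were higher without RANKL. Cell division genes were lower in TMBIM6sh libraries, 10 of 12 with RANKL (83.3%, against 19.7% of all genes) and 11 of 12 without (91.7%, against 13.8%). Of 9 macrophage markers 3 were lower with RANKL (33.3%, against 19.7%) and 1 (Mrc1) without (11.1%, against 13.8%). The part of these cell division and macrophage genes in the differences of the metabolic genes was not tested.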

How the data were processed

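Total RNA of 8 libraries, extracted with TRIzol, was sequenced on an Illumina instrument, per the labels. The submitters' processing notes name HISAT2, HOMER and DESeq2 without versions and the build mm10. The authors' RPKM values, in 1 deposited table, come from HOMER over RefSeq exons on both strands, per the file headers; the column heads say FPKM. How tags with several matches were treated is not given in the sources used here. Low values were whole tags within 0.1 tags once converted, so depth is known to counting error. Genes with at least 1 RPKM in at least 2 libraries were kept. The 4 group means were fitted on log2(RPKM + 1) with limma 3.58.1 in R 4.3.3, with an intensity trend, 4 residual and 5.54 prior degrees of freedom, and p-values were Benjamini-Hochberg adjusted over 11040 genes at 0.05 in each of 5 comparisons. A difference is thus on the log2(value + 1) scale and understates that of low genes. The fit was also run on simulated data with known changes, all of them larger than most differences called here. The outcome of that run is not given, and it is no support for calls of the size seen here. With 2 libraries against 2, a permutation test cannot go below a p of 0.333. Values per library are given for genes past the threshold and for 12 points of control, and of the other lists for up to 4 genes with the smallest p per comparison. The members and lists were chosen with earlier results of these data known. A gene of a companion list is not reported here.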

Additional observations from a re-analysis of the deposited data

How the results depend on the processing

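Of the 35 calls of single genes, 11 were kept under all 17 alternatives run, 17 were kept under every alternative other than leaving out a library, and 0 changed direction. Those kept throughout were Hk3 with RANKL under both hairpins, Ldhb with RANKL in NCsh libraries, Gpi1, Pgam1 and Dlst between hairpins in both states, and Pfkl and Idh1 between hairpins with RANKL. Pseudocounts of 0.1 and 5 and a stricter filter (at least 1 RPKM in all 8 libraries) left each count of called genes within 1.5 times. Without a filter, 3 genes were lower with RANKL in TMBIM6sh libraries, 1 was higher and 2 were lower with RANKL in NCsh libraries, and 3 were higher in TMBIM6sh libraries in each RANKL state; this adjusts over more genes. With the libraries of each comparison alone, 1 was higher and 2 were lower with RANKL in NCsh libraries, and 3 were higher and 2 lower in TMBIM6sh libraries without RANKL. Without the intensity trend, 2 were lower with RANKL in NCsh libraries, 2 were lower in TMBIM6sh libraries without RANKL, and 3 were higher and 3 lower with RANKL. After median-ratio scaling, 1 was higher with RANKL in NCsh libraries, and 11 were higher and 3 lower in TMBIM6sh libraries with RANKL. limma with voom on tags recovered from the RPKM steps was chosen after seeing the data. It called 5 higher with RANKL under each hairpin, and 8 higher with and 10 higher without RANKL in TMBIM6sh libraries. Over all genes, voom called 1234 higher with RANKL in TMBIM6sh and 1799 in NCsh libraries, against 942 and 1214 in the main fit. Between hairpins it called 1199 of all genes higher with and 1412 without RANKL, against 986 and 1147. The edgeR and DESeq2 alternatives on these tags were not run, since the deposited values are RPKM. Counts over all genes moved as well under these settings and on leaving out a library. The changed counts are therefore not read as a result about the listed genes. The cause of the other moves was not tested.

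The 18 calls that ended under alternatives other than leaving out a library were these. With RANKL in TMBIM6sh libraries, Ldhb ended with a pseudocount of 5, no filter, the replicate block or voom, Pgd with no filter or no trend, and Pcx with a pseudocount of 0.1. With RANKL in NCsh libraries, G6pdx and Pgd ended with no filter, no trend or the compared libraries alone, and Dlst with these or scaling. Between hairpins without RANKL, Cs and Idh1 ended with no filter, no trend or the compared libraries alone, Suclg1 with no filter or the compared libraries alone, Slc2a1 with no trend or the compared libraries alone, Dlat with the compared libraries alone, and Mdh1 with no filter. Between hairpins with RANKL, Idh2 ended with no filter, no trend, scaling or the compared libraries alone, Hk2 with no filter, no trend or scaling, Slc2a1 with no trend or scaling, Suclg1 with no filter or no trend, Ogdh with no filter, no trend or the block, and Pcx with a pseudocount of 0.1, the compared libraries alone or the block.

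Over the fits that each left out 1 library, the genes called higher and lower with RANKL numbered 0 to 4 and 1 to 6 in TMBIM6sh libraries, and 0 to 3 and 2 to 4 in NCsh libraries. Between hairpins they numbered 2 to 9 and 3 to 6 with RANKL, and 1 to 6 and 2 to 6 without. The difference of the responses stayed at 0 in each. Deviations of same-numbered libraries correlated at r of -0.065 to 0.062 over all genes in the 6 pairs of groups, and at -0.228 to 0.206 over the 46 genes. Not every pair was above 0.1 on either count, so the numbers were not taken to pair the samples. With the replicate block, 4 genes were higher and 4 lower with RANKL in TMBIM6sh libraries, 2 and 4 in NCsh libraries, 4 and 6 between hairpins with RANKL, 6 and 4 without, and 0 and 0 for the difference of the responses. The block ended the calls of Ldhb with RANKL in TMBIM6sh libraries (limma adjusted p = 0.0526) and of Ogdh and Pcx between hairpins with RANKL (0.0505 and 0.0589).

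Over all genes, scaling moved the RANKL calls in NCsh libraries to 787 higher and 850 lower (1214 and 439 as deposited), and the higher calls between hairpins with RANKL to 1608 (986 as deposited). The compared libraries alone gave 755 higher and 265 lower with RANKL in NCsh libraries. Between hairpins without RANKL they gave 864 higher and 1161 lower (1147 and 1526 in the main fit). Without a filter, 571 were lower with RANKL in TMBIM6sh libraries (761 in the main fit), and 814 higher and 299 lower in NCsh libraries. Between hairpins 796 were then higher with and 872 without RANKL. Without the trend, 349 were lower with RANKL in NCsh libraries. Between hairpins 1411 were then lower without RANKL, and 861 higher and 2086 lower with it (2171 lower in the main fit). The difference of the responses was called for at most 2 genes higher and 6 lower, without a filter. Depth limits Pcx (73 to 223 tags per library) and Ldhb (83 to 185).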

Other observations

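Among the further pyruvate and citrate cycle genes, Got2, Sdhd and Slc25a11 were called between hairpins in both RANKL states with small p-values. Got2, the mitochondrial aspartate aminotransferase, had 50.3 and 54.7 RPKM in TMBIM6sh and 36.2 and 38.4 RPKM in NCsh libraries with RANKL, and 48.6 and 45.4 RPKM in TMBIM6sh and 33.6 and 35.8 RPKM in NCsh libraries without RANKL. It was higher in TMBIM6sh libraries, by 0.48 ± 0.069 (SE; limma adjusted p = 0.000904) with RANKL and 0.43 ± 0.069 (SE; limma adjusted p = 0.00202) without. Slc25a11, the oxoglutarate carrier gene, had 28.8 and 30.9 RPKM in TMBIM6sh and 35.5 and 38.4 RPKM in NCsh libraries with RANKL, and 27.8 and 28.7 RPKM in TMBIM6sh and 35.3 and 36.4 RPKM in NCsh libraries without RANKL. It was lower in TMBIM6sh libraries, with a difference of -0.30 ± 0.065 (SE; limma adjusted p = 0.00787) with RANKL and -0.33 ± 0.065 (SE; limma adjusted p = 0.00555) without. Sdhd, the only one of the 4 succinate dehydrogenase subunit genes to be called, had 39.0 and 41.0 RPKM in TMBIM6sh and 51.1 and 52.4 RPKM in NCsh libraries with RANKL, and 37.0 and 37.9 RPKM in TMBIM6sh and 46.7 and 53.1 RPKM in NCsh libraries without RANKL. It was lower in TMBIM6sh libraries, with a difference of -0.36 ± 0.07 (SE; limma adjusted p = 0.00438) with RANKL and -0.40 ± 0.07 (SE; limma adjusted p = 0.00308) without. Slc25a12, an aspartate-glutamate carrier gene, was higher by 0.37 with and 0.27 without RANKL.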
